A study of Mus musculus with 18 samples.

Results

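The genes described here encode the subunits of 2 classes of glutamate-gated ion channel, the AMPA receptors (4 genes, Gria1 to Gria4) and the NMDA receptors (6 genes, Grin1, Grin2a, Grin2b, Grin2c, Grin2d and Grin3a). They were found in the deposited count tables by Ensembl identifier, and these 10 are among 54547 identifiers listed. Each was compared between medial prefrontal cortex of C57BL6/J mice on a control diet (9 libraries) and on chow holding PLX5622 at 1200 mg/kg (9 libraries). PLX5622 inhibits CSF1R, a receptor that microglia need to survive. Per the labels, the diet was given for 21 days before drinking of 15% ethanol every other day for 44 days, and tissue was taken 24 hours after the last exposure, at postnatal day 100. The labels carry the same treatment text for all 18 libraries, and it names PLX5622 for controls as well, so the diets were taken from the titles and the chow label. Both diets carry the ethanol text, and no water group is used here. Neither sex nor housing is stated.

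AMPA receptors are tetramers that carry most of the fast excitatory current between neurons. Their subunit GluA2, from Gria2, makes the channel nearly impermeable to calcium once its messenger has been edited by the enzyme ADAR2. NMDA receptors combine the obligatory subunit GluN1, from Grin1, with GluN2 or GluN3 subunits. GluN2 subunits bind glutamate, and GluN1 and GluN3 bind glycine or D-serine. The GluN2A share of cortical receptors rises after birth relative to GluN2B, so the Grin2a to Grin2b ratio is a usual index of receptor maturation. NMDA receptors are among the known targets of ethanol.

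Coding stretches are shown because they show the codon at which Gria2 messenger is edited and how the members differ in a conserved stretch. The first set spans the editing position in the pore loop of the AMPA subunits, 30 bases each from GENCODE M21 transcripts of GRCm38, with the codon of the editing position in capitals. Gria2 is read from chr3:80706896-80706925 on the minus strand, in exon 11 of 16. Gria1 lies at chr11:57243082-57243111 on the plus strand, Gria3 at chrX:41610253-41610282 on the plus strand, and Gria4 at chr9:4464122-4464151 on the minus strand.
Gria1: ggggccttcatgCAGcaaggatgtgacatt
Gria2: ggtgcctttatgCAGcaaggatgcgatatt
Gria3: ggtgcttttatgCAGcaaggatgtgatatt
Gria4: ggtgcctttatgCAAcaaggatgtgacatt
The genome carries a glutamine codon at this place in all 4 genes, and it is changed in the RNA of Gria2 by editing. Gene counts hold no information on editing.

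The next set is a highly conserved stretch of the family, 24 coding bases of the third membrane segment, which lines the channel, from the same transcripts. It lies on the plus strand for Gria1 (chr11:57283571-57283594) and Gria3 (chrX:41620858-41620881), and on the minus strand for Gria2 (chr3:80702572-80702595), Gria4 (chr9:4462020-4462043), Grin1 (chr2:25297202-25297225), Grin2a (chr16:9653450-9653473), Grin2c (chr11:115253752-115253775), Grin2d (chr7:45854282-45854305) and Grin3a (chr4:49770473-49770496). Capitals mark bases that differ from Gria2.
Gria2: tcctacacggctaacttagctgcc
Gria1: tcAtacacAgcCaacCtGgctgcc
Gria3: tcctacacTgcAaacCtTgctgcT
Gria4: tcctacacTgctaaTCtGgctgcA
Grin1: tcctacacTgcCaacCtGgcAgcc
Grin2a: AGTtacacAgcCaacCtGgctgcc
Grin2c: AGctacacggcCaaTCtGgcAgcc
Grin2d: AGctaTacAgcCaaTCtGgctgcc
Grin3a: AcAtacacAgcGaacttGgctgcT
In this stretch the other members shown differed from Gria2 at 5 to 8 bases. The stretch was picked by a protein motif that every member holds, so its likeness was set in part by that choice. The longest run of bases shared by transcripts of any pair of members was 57, between Gria3 and Gria4, followed by 56 between Gria2 and Gria3. Read length is not stated, so whether reads from these short runs could be shared between Gria genes was not tested.

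In GENCODE M21 on GRCm38 the AMPA genes lay on separate chromosomes, with Gria1 (ENSMUSG00000020524.16) at chr11:57011387-57330244 on the plus strand, Gria2 (ENSMUSG00000033981.14) at chr3:80681450-80802835 on the minus strand, Gria3 (ENSMUSG00000001986.16) at chrX:41400854-41678601 on the plus strand and Gria4 (ENSMUSG00000025892.16) at chr9:4417896-4796234 on the minus strand. Of the NMDA genes, Grin1 (ENSMUSG00000026959.13) at chr2:25291181-25319187 on the minus strand was short, spanning 28.0 kb, while Grin2a (ENSMUSG00000059003.12) at chr16:9567898-9995560 on the minus strand and Grin2b (ENSMUSG00000030209.14) at chr6:135713233-136173511 on the minus strand spanned 427.7 and 460.3 kb. The remaining members were Grin2c (ENSMUSG00000020734.13) at chr11:115249169-115267243 on the minus strand, Grin2d (ENSMUSG00000002771.12) at chr7:45831883-45878378 on the minus strand and Grin3a (ENSMUSG00000039579.15) at chr4:49661611-49845744 on the minus strand.

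The count total of a library ran from 990136 to 1742680 (median 1384979). Microglial markers show the effect of the diet, since all 10 fell, with summed levels of 335 to 471 CPM (read counts scaled to a common library size) in controls and 76.4 to 146.9 CPM with PLX5622. P2ry12 fell by 2.17 and Csf1r by 1.77 on the log2 scale (edgeR, Benjamini-Hochberg adjusted p = 1.1e-19 and 1.6e-12). In bulk tissue, fewer cells of a type and less RNA per cell cannot be told apart. The 6 excitatory neuron markers were all measurable, with summed levels of 1303 to 1474 CPM in controls and 1385 to 1527 CPM with PLX5622. They cannot tell medial prefrontal cortex from other cortex, so the region rests on the label. Striatal neuron markers summed to 68.7 to 92.8 CPM in controls and 79.6 to 91.4 CPM with PLX5622. Of 3 tested striatal markers 0 were called and 1 was at an unadjusted p under 0.05 (edgeR). For GABAergic neuron markers the sums were 830 to 973 CPM and 834 to 951 CPM, and none of these 7 or of the 6 excitatory markers passed the test at an adjusted p under 0.05. At an unadjusted p under 0.05 (edgeR) were 2 of the 6 excitatory markers, each higher with PLX5622, and 0 of the 7 GABAergic markers. The share of all tested genes at that threshold was 6.79%.

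The 10 subunit genes together held 0.546% ± 0.017 of all counts in the control libraries, and in the PLX5622 libraries 0.533% ± 0.018 (SD, 9 libraries a diet). No subunit gene passed the test between the diets (quasi-likelihood F test of edgeR over 11051 genes, called at a Benjamini-Hochberg adjusted p under 0.05). The background is that 0.398% of all tested genes passed, 0.353% as lower and 0.0452% as higher with PLX5622. None of the 10 reached an unadjusted p under 0.05 either, against 6.79% of all tested genes, and DESeq2 and limma-voom likewise called 0 with 0 at an unadjusted p under 0.05. All 10 passed the filter on low counts, so the count is over every member. Their adjusted p ranged from 0.830 for Gria3 to 0.981 for Grin3a. When single libraries were left out, Gria3 alone reached an unadjusted p under 0.05, at 0.038 without control 10 and 0.046 without PLX5622 25 (edgeR adjusted p = 0.652 and 0.647).

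**Figure D1:**
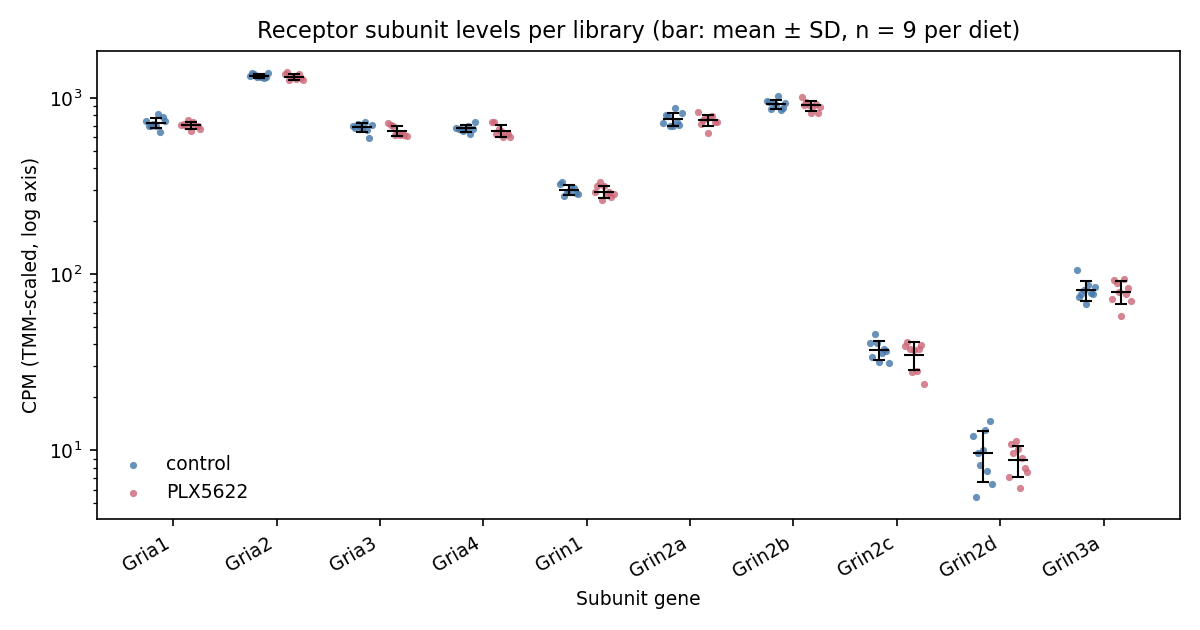
CPM of the 10 subunit genes on a log axis, with 1 point for each library, ordered by animal number in each diet, and bars for the mean ± SD (n = 9 per diet). Points of both diets overlap for each gene, from about 1346 CPM for Gria2 in controls to 9.71 CPM for Grin2d.

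Among the AMPA genes, Gria2, the subunit that sets calcium permeability, had the most even values. It ran from 1305 to 1400 CPM in controls with a median of 1341, and from 1267 to 1411 CPM with PLX5622 with a median of 1321. The PLX5622 range enclosed the control range. The log2 fold change of Gria2 was -0.020 ± 0.037 (SE), with a 95% interval of -0.093 to 0.054, which as a difference from the control level is -6.25% to 3.79%.

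Gria1 encodes GluA1, which is inserted into synapses during potentiation. Its levels were 642 to 812 CPM in controls (median 712) and 651 to 755 CPM with PLX5622 (median 698). Control 8 was the highest library and control 9 the lowest, so the PLX5622 values lay inside the control range. The log2 fold change of Gria1 was -0.051 ± 0.042 (SE; 95% interval -0.13 to 0.032).

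Gria3, the X-linked AMPA subunit gene, had the smallest p of the 10 (unadjusted 0.123). Controls ran from 599 to 732 CPM (median 688) and PLX5622 libraries from 614 to 726 CPM (median 635). Of the PLX5622 libraries 6 lay at 614 to 639 CPM, below 8 of the 9 controls, while PLX5622 25, 26 and 27 reached 694 to 726 CPM and control 10 was the lowest of all at 599 CPM. The log2 fold change was -0.066 ± 0.042 (SE; 95% interval -0.15 to 0.018).

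Gria4 encodes GluA4, which in cortex is prominent in fast-spiking interneurons. Control libraries held 625 to 736 CPM (median 670) and PLX5622 libraries 605 to 734 CPM (median 631). PLX5622 25 and 26 stood at the top of their group at 734 and 733 CPM, near control 11, the highest control. The difference between diets for Gria4 was -0.045 ± 0.042 (log2, SE; 95% interval -0.13 to 0.039), with 7 of 9 PLX5622 libraries below the control mean.

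Grin1, which every NMDA receptor needs, ran from 279 to 335 CPM in controls (median 294) and from 264 to 333 CPM with PLX5622 (median 292). The groups overlapped nearly throughout. Its log2 fold change was -0.034 ± 0.048 (SE; 95% interval -0.13 to 0.061). Of the Grin1 exon bases 28.5% are overlapped on the other strand by Grin1os, a gene model that had 3 counts in all 18 libraries.

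Grin2a and Grin2b, the GluN2 genes that dominate in cortex, were the most abundant of the NMDA genes in counts. Grin2a was at 694 to 886 CPM in controls (median 737) and 632 to 831 CPM with PLX5622 (median 751). The mean with PLX5622 was thus slightly lower, 751 ± 57 against 763 ± 67 CPM (SD over 9 libraries), while the median was slightly higher. Grin2b was at 853 to 1029 CPM in controls (median 937) and 827 to 1024 CPM with PLX5622 (median 917). Control 8 was the highest control and PLX5622 25 the highest PLX5622 library for both genes, and PLX5622 29 was the lowest library of all for both. The log2 fold changes were -0.023 ± 0.046 for Grin2a and -0.026 ± 0.041 for Grin2b (SE), with 95% intervals of -0.11 to 0.068 and -0.11 to 0.056.

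The remaining NMDA genes were measured with less precision. Grin2c, which is best known from cerebellar granule cells and is also expressed by astrocytes, had 27 to 66 counts a library, at 31.5 to 46.0 CPM in controls and 23.9 to 41.3 CPM with PLX5622. PLX5622 28, 31 and 35 lay at 23.9 to 28.4 CPM, below all 9 controls, while the other 6 PLX5622 libraries lay among the controls. The astrocyte markers summed to 631 to 752 CPM in controls and 680 to 884 CPM with PLX5622, with 5 of 5 fold changes positive and 0 called. Their part in the level of Grin2c was not tested.

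Grin2d, which in adult cortex is found mainly in interneurons, had only 7 to 20 counts a library, at 5.41 to 14.8 CPM in controls and 6.14 to 11.4 CPM with PLX5622. On the other strand, 40.8% of its exon bases are overlapped by other gene models, among them Kdelr1 at 53 to 111 counts a library. The strand setting is not stated, but of coding genes nested in an intron of a gene on the opposite strand 197 of 313 had counts, against 0 of 137 on the same strand, so the counts behave as assigned by strand. Grin3a, which encodes a glycine-binding subunit that lowers calcium entry, had 69 to 158 counts a library, at 67.5 to 105.5 CPM in controls and 58.2 to 94.3 CPM with PLX5622. Control 2 was the highest and PLX5622 29 the lowest. The log2 fold changes of Grin2c, Grin2d and Grin3a were -0.085 ± 0.105, -0.16 ± 0.20 and -0.036 ± 0.079 (SE). Grin3b, the remaining gene of the family and not among the 10, had 1 count in all 18 libraries.

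**Figure D2:**
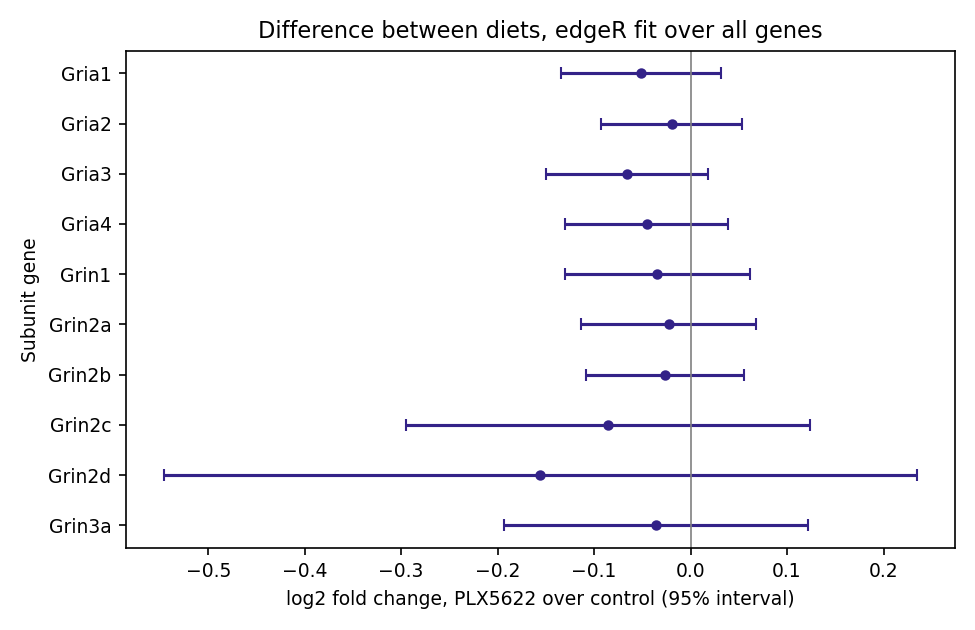
Log2 fold change of each subunit gene, PLX5622 over control, from the edgeR fit over all genes, with its 95% interval. All intervals cross 0, and they are narrowest for Gria2 (-0.093 to 0.054) and widest for Grin2d (-0.55 to 0.23).

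The precision differed with depth. For the 4 AMPA genes, Grin1, Grin2a and Grin2b, the 95% intervals lay between -9.89% and 4.84% as a difference from the control level. Those of Grin3a and Grin2c ran from -12.5% to 8.81% and from -18.5% to 8.98%. For Grin2d the interval was the widest, from -31.5% to 17.7%. The spread of Gria2 between control libraries, 2.39% of its mean, was close to the 2.37% that counting error alone gives, while between PLX5622 libraries it was 3.72% against 2.36%. Grin2a varied more, 8.77% in controls and 7.56% with PLX5622 against 3.16% and 3.15% from counting error. Grin2c had a spread of 12.6% in controls and 18.1% with PLX5622, beside 14.4% and 14.9% from counting error. Grin2d had 32.2% and 20.3%, beside 29.3% and 29.2%.

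All 10 log2 fold changes were below 0, with a median of -0.041 against 9.9e-05 over all 11051 tested genes, of which 50% were below 0. The 10 values come from the same libraries and the same scaling and are not independent. The slopes of the 10 genes with the position of the animal number, given below, were also below 0. The sign stayed below 0 for all 10 with median-of-ratios and upper-quartile scaling, while leaving out single libraries turned those of Grin2a (between -0.043 and 0.0068) and Grin3a (between -0.068 and 0.020). Of the 10 genes 7 span over 100 kb, while Grin1, Grin2c and Grin2d, also below 0, span 28.0, 18.1 and 46.5 kb. Tested genes over that length numbered 2062, had a median of -0.014 and were below 0 in 57.5%. Genes over 100 kb held 35.5% to 39.6% of all counts in the control libraries and 35.1% to 37.7% in the PLX5622 libraries. Whether gene length bears on the sign of the 10 was not tested.

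Levels of different genes depend on the length they are divided by, and both annotated lengths were used. Per kilobase of exon the AMPA genes stood above the NMDA genes in CPM per kilobase. Gria1 was at 118.2 ± 7.1, Gria4 at 105.4 ± 6.6, Gria2 at 86.0 ± 2.7 and Gria3 at 67.8 ± 4.4 (SD, n = 18 libraries). Grin2a was at 42.2 ± 3.4, Grin2b at 37.03 ± 2.26 and Grin1 at 30.8 ± 2.1. At the bottom were Grin2c at 7.14 ± 1.095, Grin3a at 6.57 ± 0.89 and Grin2d at 1.39 ± 0.38. Each gene exceeded the next in this order in 18 of 18 libraries, except that Grin2c exceeded Grin3a in 12. The ranges over libraries overlapped between Gria1 and Gria4, between Grin2a and Grin2b, between Grin2b and Grin1, and between Grin2c and Grin3a. Per kilobase of gene span, introns included, the order was another. Gria2 was at 11.0 and Grin1 at 10.7 CPM per kilobase of span, followed by Gria3 at 2.41, Gria1 at 2.24, Grin2b at 2.00, Grin2c at 1.99, Grin2a at 1.77 and Gria4 at 1.76, with Grin3a at 0.438 and Grin2d at 0.1997 (means of 18 libraries). Grin1, the shortest but 1 in span, thus stood above 3 of the 4 AMPA genes. Since the counts behave as sums over whole gene bodies, and the libraries are biased to the 3' end, neither length gives molecules, and the order of levels between genes is not settled by these data. In CPM without length, Gria2 came first and Grin2b next.

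Ratios of subunit counts within a library need no depth scaling. An effect of gene length that is equal in all libraries cancels when the diets are compared. A length effect that differs between libraries does not cancel, as for Grin2a (427.7 kb) over Grin1 (28.0 kb), and its part was not tested. Of 8 ratios none passed a test between the diets (exact permutation test over all 48620 group assignments, two-sided, lowest unadjusted p = 0.216, all adjusted p = 0.988 over the 8). The Grin2a to Grin2b count ratio ran from 0.741 to 0.909 in controls with a median of 0.845, and from 0.764 to 0.887 with PLX5622 with a median of 0.824. Control 5, at 0.741, was the lowest and control 4, at 0.909, the highest, so the controls enclosed all PLX5622 libraries. The log2 ratio differed by 0.0055, with an interval from the exact test of -0.088 to 0.099, which spans a ratio 0.941 to 1.07 times that of controls.

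The ratio of Grin2a to Grin1 was 2.23 to 2.86 in controls and 2.00 to 2.95 with PLX5622, and that of Grin2b to Grin1 was 2.77 to 3.30 and 2.61 to 3.48. For Grin3a to Grin1 the ranges were 0.221 to 0.325 and 0.184 to 0.334. PLX5622 29 had the lowest value of its diet in all 3, and also for Grin2a to Grin2b and Gria1 to Gria2. Log2 differences were 0.014 for Grin2a, 0.0082 for Grin2b and 0.0015 for Grin3a over Grin1, with intervals of -0.15 to 0.18, -0.11 to 0.12 and -0.21 to 0.21. For Grin2a to Grin1 the difference depended on the summary, since the median ratio was 2.41 in controls and 2.69 with PLX5622, a log2 difference of medians of 0.16 (exact permutation test, adjusted p = 1), and 6 of 9 PLX5622 libraries lay above the control median.

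Within the AMPA genes, Gria1 to Gria2 was 0.492 to 0.610 in controls (median 0.535) and 0.490 to 0.571 with PLX5622 (median 0.522). Gria3 to Gria2 was 0.456 to 0.551 (median 0.512) and 0.462 to 0.547 (median 0.481), with 7 of 9 PLX5622 libraries below the control median. Gria4 to Gria2 was 0.478 to 0.531 (median 0.499) and 0.455 to 0.534 (median 0.494). Their log2 differences were -0.028, -0.048 and -0.027, with intervals of -0.12 to 0.066, -0.13 to 0.032 and -0.091 to 0.037. Between the receptor classes, Gria2 to Grin1 was 4.14 to 4.90 in controls and 3.81 to 5.01 with PLX5622, a log2 difference of 0.016 with an interval of -0.088 to 0.12.

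**Figure D3:**
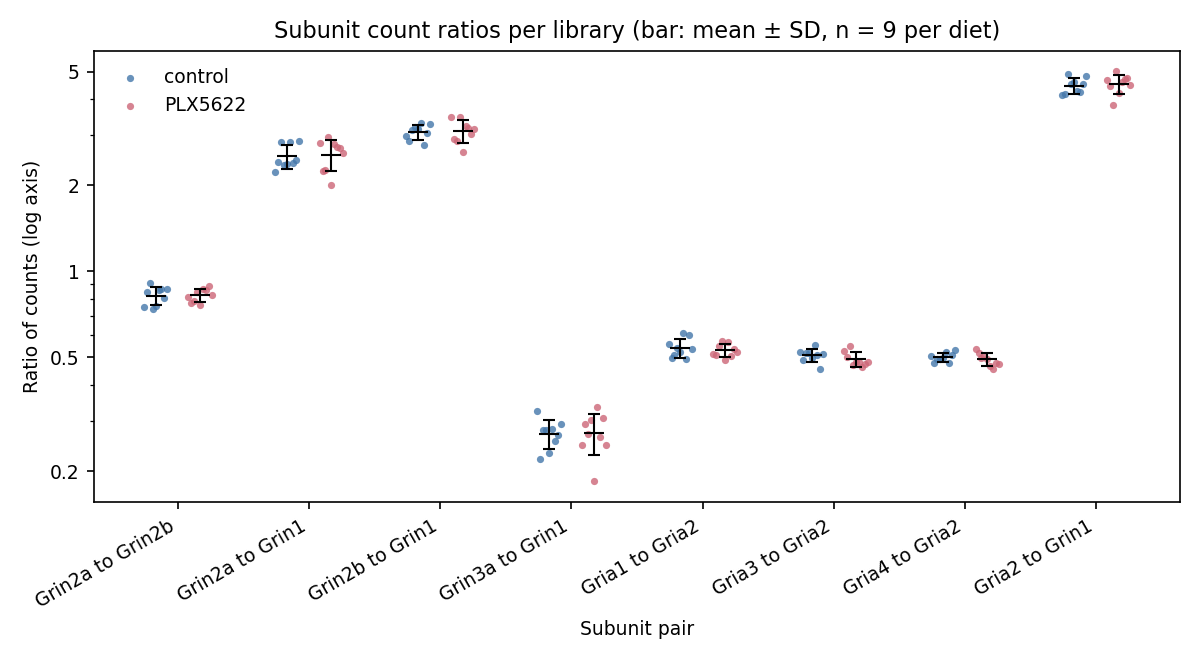
Count ratios of 8 subunit pairs on a log axis, with 1 point for each library, ordered by animal number in each diet, and bars for the mean ± SD (n = 9 per diet). The diets overlap for every pair, with Grin2a to Grin2b between 0.741 and 0.909 in all 18 libraries.

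The mean shares of the genes within each receptor class differed between the diets by less than 1 SD between libraries of a diet. Gria2 held 39.3% ± 1.0 of AMPA subunit counts in controls and 39.8% ± 0.9 with PLX5622, and Gria1 held 21.2% ± 1.2 and 21.0% ± 1.0 (SD over 9 libraries). Gria3 held 19.9% ± 0.9 and 19.6% ± 0.8, and Gria4 19.7% ± 0.4 and 19.6% ± 0.8. Among NMDA subunit counts, Grin2b held 43.7% ± 1.3 and 43.8% ± 0.9, Grin2a 35.9% ± 1.8 and 36.1% ± 1.5, and Grin1 14.3% ± 0.8 and 14.2% ± 1.3. Grin3a held 3.84% in both, Grin2c 1.76% and 1.67%, and Grin2d 0.458% and 0.428%. These shares are of counts and not of molecules, since how counts depend on gene length is not settled by these data. The ratio of summed AMPA to summed NMDA subunit counts was 1.62 ± 0.06 in controls and 1.60 ± 0.08 with PLX5622.

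**Figure D4:**
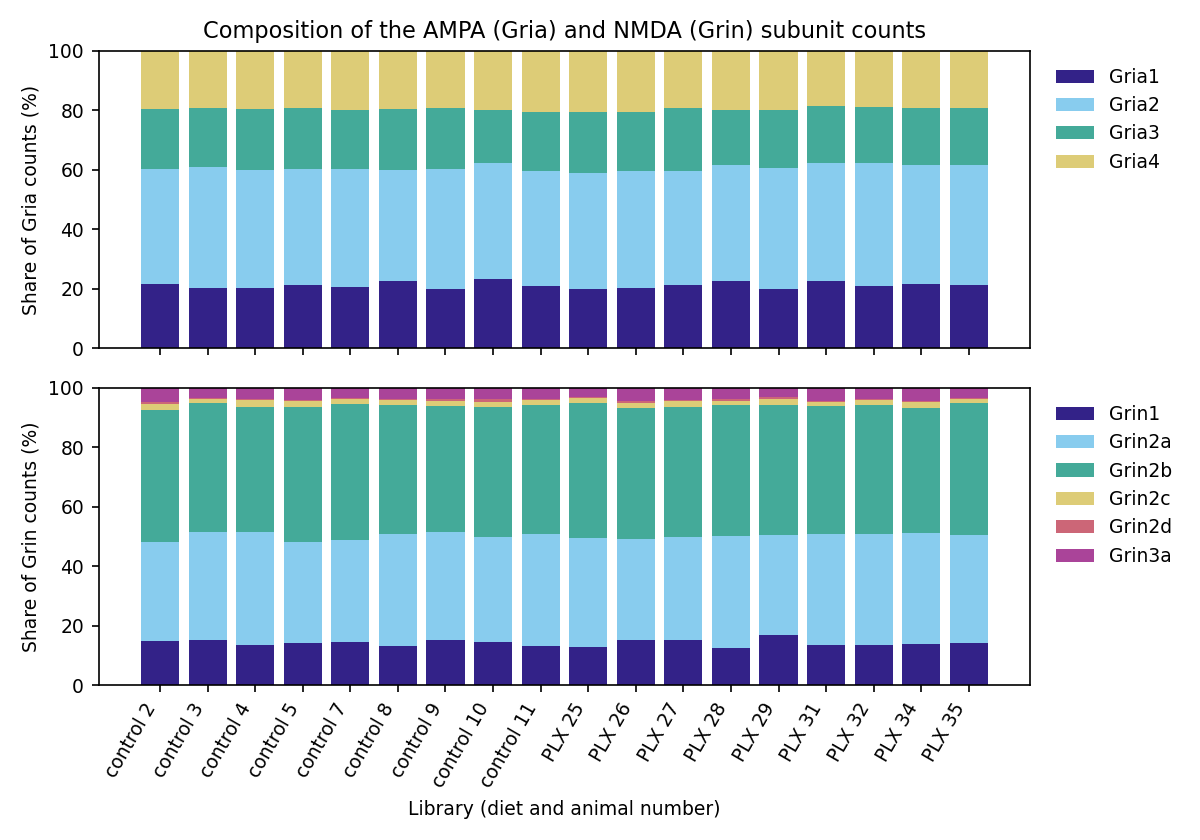
Share of each gene in the AMPA (top) and NMDA (bottom) subunit counts of each library, in percent, with 1 bar a library. Gria2 takes 37.3% to 41.3% of AMPA subunit counts and Grin2b 41.97% to 45.6% of NMDA subunit counts over the 18 libraries.

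The labels number the animals, from 2 to 11 in controls and from 25 to 35 with PLX5622, and the position of a number within its diet was tested in a fit with the diet. None of the 10 genes passed (edgeR, adjusted p under 0.05), beside 0.308% of all tested genes. At an unadjusted p under 0.05 were Gria3, at -0.020 ± 0.008 per position (log2, SE, adjusted p = 0.367), and Grin1, at -0.018 ± 0.009 (adjusted p = 0.536), where 9.27% of all tested genes were at that threshold. All 10 slopes were below 0, from -0.038 for Grin2c to -0.00048 for Gria1, as were the 10 fold changes between the diets. With position in the fit the diet still gave 0 calls among the 10 genes. Numbers of the 2 diets do not overlap, so diet and anything tied to the number as a whole cannot be told apart.

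Genes that work with the receptors were taken as 6 lists of 58 genes in all, of which 50 could be tested. None passed between the diets, with 2 at an unadjusted p under 0.05 by edgeR, and DESeq2 and limma-voom also called 0. The 50 had a median log2 fold change of -0.0088, with 22 above 0 and 28 below. The lowest adjusted p was 0.310.

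Of 17 AMPA auxiliary and assembly genes 13 were tested, 6 with positive and 7 with negative values. Cacng4, an auxiliary subunit of the TARP family that is also abundant in oligodendrocyte precursors, was at 31.2 ± 6.2 CPM in controls and 38.9 ± 6.2 CPM with PLX5622, a log2 fold change of 0.32 ± 0.11 (SE, adjusted p = 0.310). Oligodendrocyte precursor markers summed to 44.8 to 79.8 CPM in controls and 51.8 to 76.5 CPM with PLX5622, with 0 of 4 called and 3 of 4 positive, and their part in Cacng4 was not tested. Cpt1c, an endoplasmic reticulum partner of GluA1, was at -0.17 ± 0.09, and Cnih2, a cornichon that slows AMPA channel gating, at 0.086 ± 0.059 (log2, SE). Cacng5, Cacng7, Cacng8 and Shisa8 did not pass the count filter. Of the 17 genes 2 had no counts in any library, and whether that reflects expression or the counting was not tested.

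Of 13 scaffold and trafficking genes 12 were tested, and Pick1, the other, had no counts in any library. Snx27, which returns receptors from endosomes to the surface, was at 128 ± 11 and 144 ± 15 CPM (log2 fold change 0.18 ± 0.06, SE, edgeR adjusted p = 0.322). Gripap1 was at -0.15 ± 0.08 and Grip1, a PDZ scaffold of GluA2, at -0.092 ± 0.057. All 10 NMDA signalling partners were tested, 9 with negative values and a list median of -0.016. Without control 10 the values were 5 positive and 5 negative, and without control 3 all 10 were negative. Camk2a, the kinase that binds GluN2B, was at 1580 ± 88 and 1514 ± 91 CPM (mean ± SD over 9 libraries; log2 fold change -0.063 ± 0.040), Actn2 at -0.24 ± 0.14 and Neto1 at -0.055 ± 0.060 (log2, SE).

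Supply of the glycine-site agonists was represented by 4 tested genes of 6. Srr, which makes D-serine, was at 0.013 ± 0.067, the serine transporter Slc1a4 at 0.021 ± 0.082 and the glycine transporter Slc6a9 at -0.057 ± 0.128 (log2, SE). Of 9 genes of glutamate transport and metabolism 8 were tested, 6 with positive values and a median of 0.060. The astrocytic transporters Slc1a3 and Slc1a2 were at 0.085 ± 0.047 and -0.051 ± 0.038 (log2, SE). For the editing enzymes, Adarb1, which encodes ADAR2 and acts on the Gria2 codon shown above, was at 132 ± 15 CPM in controls and 141 ± 9 CPM with PLX5622 (log2 fold change 0.093 ± 0.061, SE, adjusted p = 0.839). Adar was at -0.028 and Adarb2 at -0.034.

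**Figure D5:**
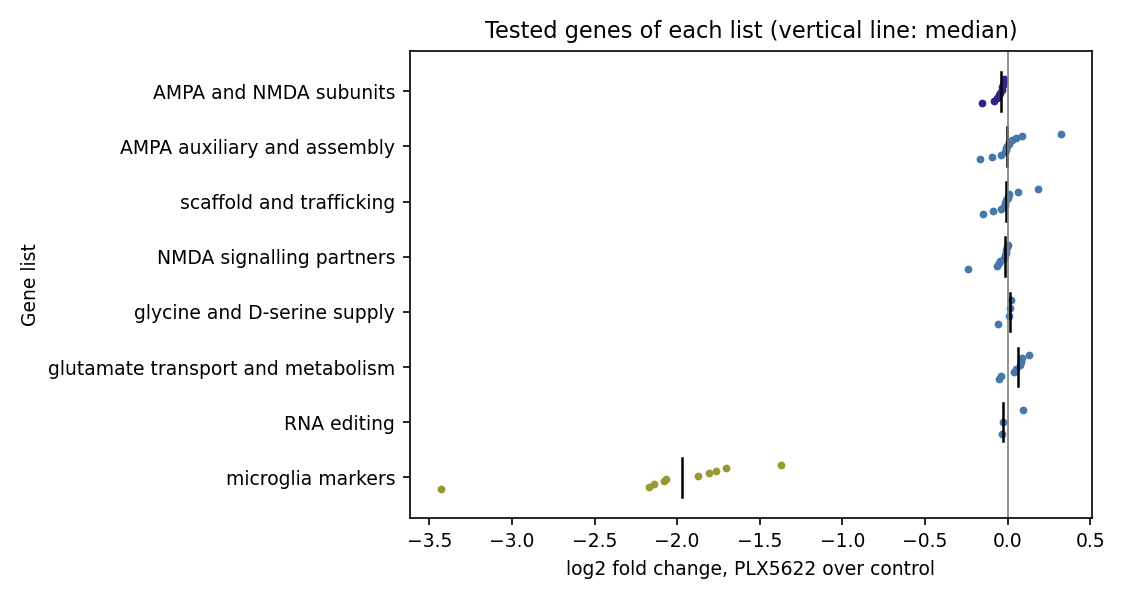
Log2 fold changes, PLX5622 over control, of the tested genes of each list, with 1 point a gene and a vertical line at the median. The subunit genes lie between -0.16 and -0.020, the genes of the 6 other receptor-related lists between -0.24 and 0.32, and the microglial markers between -3.43 and -1.37.

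The genes most like the leading member of each class were sought among 5759 other tested genes whose mean count reached 50, by Pearson's r of log2 CPM over 18 libraries after the mean of each diet was subtracted. For Gria2 these were Cntnap2 (r = 0.746), Lrp1b (0.730) and Rims2 (0.712). For Grin2b they were Adcy2 (0.848), Aff2 (0.809) and Dlgap1 (0.806). These are the largest of many values over few libraries and are given as a description only. All 6 genes are long, spanning 379 to 2245 kb, as are Gria2 (121.4 kb) and Grin2b (460.3 kb), and the counts behave as sums over whole gene bodies, introns included. Of all 11051 tested genes 2062 span over 100 kb. The share among the 5759 candidates was not counted, and the part of length in these correlations was not tested.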

How the data were processed

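The authors deposited whole-number read counts per Ensembl gene, 1 table for each of 18 libraries. Per the labels and the series' design text, total RNA was fragmented and made into libraries biased to the 3' end, read from a single end. Builds mm10 and GRCm38.p6 stand in the submitters' processing notes, which also list HTSeq 0.11.0, Bowtie2 2.3.4.3, R 3.5.1, FastQC 0.11.8 and DESeq2 1.10.1 without their order. The strand setting, the counted feature and the annotation were not given in the sources used here. Of 137 coding genes lying in an intron of another on the same strand 0 had counts, against 197 of 313 on the opposite strand, so counts behave as stranded sums over gene bodies. Identifiers were matched to GENCODE M21 without version (53706 of 54547, the rest holding 0.0278% of counts).

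Groups come from the titles. The labels do not say that the libraries come from separate cages or litters, so p-values measure the spread between these libraries. Pairs within a diet differed by more than sampling noise (lowest chi-square per degree of freedom 1.129), so all were kept. The highest value was 2.697, between controls 8 and 9. Pairs with control 8 ran from 1.429, with control 11, to that value. edgeR 4.0.16 in R 4.3.3 was run on the deposited counts with filterByExpr (minimum count 10, total 15), scaling by TMM, robust quasi-likelihood dispersions and adjustment by Benjamini-Hochberg over 11051 genes, calling an adjusted p under 0.05. SE and 95% intervals follow from the fit. CPM use TMM-scaled totals, and log2 CPM a prior count of 2. Log2 ratios had 0.5 added to each count, and their intervals invert the exact test. Intervals cover no error shared by all libraries of a diet. Both procedures were tested on simulated data. For edgeR, 28% of simulated 1.1-fold changes were called at a mean of at least 300 counts and 0% under 300. For 1.2-fold changes the shares were 88% and 28%, and for 1.5-fold changes 100% and 80%. Small differences could thus go uncalled, most of all at low counts. The members, lists, ratios and alternatives were chosen with earlier results of these data known. Named genes are all members, and the called genes of each receptor-related list or else up to 3 with the smallest p. One gene that this rule names and 1 sequence are not reported here. Likeness was ranked for the member of each class with the most counts. Alternatives were DESeq2 1.42.0, limma-voom (limma 3.58.1), other scalings, filters and pseudocount, medians, thinning, the animal number's position and leaving out each library.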

Additional observations from a re-analysis of the deposited data

How the results depend on the processing

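The count of called subunit genes and of called genes in the 6 receptor-related lists was 0 under DESeq2, limma-voom, both other scalings, both other count filters, thinning, the position covariate and each omission of 1 of the 18 libraries. With a mean of at least 50 counts Grin2c and Grin2d were not tested, and after thinning Grin2d was not. Over all genes the main count was 5 higher and 39 lower, against 7 and 65 with DESeq2, 14 and 41 with limma-voom, 20 and 92 without a count filter, 0 and 8 at a mean of at least 50 counts, 17 and 41 with position, and 2 to 13 higher without 1 library. Differences near 0 changed sign without passing any test, and the cause was not tested. By group medians the log2 difference was -0.036 for Grin2a to Grin2b and -0.042 for Grin3a to Grin1, while Grin2a to Grin1 moved from 0.014 to 0.16, and after thinning it was 0.0077 for Gria4 to Gria2. Leaving out 1 library gave -0.043 to 0.0068 for the log2 fold change of Grin2a (highest without control 8) and -0.068 to 0.020 for Grin3a. The other 8 stayed below 0. Gria3 kept within 1.5 times its value (-0.089 to -0.053). The rest moved by more, Gria1 to -0.030 without control 8, Gria4 to -0.029 without control 11 and -0.069 without PLX5622 25, Grin2c to -0.026 without PLX5622 35, and Grin2d to -0.059 without control 10. Leaving out 1 library gave -0.032 to -0.011 for Gria2 (lowest without PLX5622 26, highest without PLX5622 27), -0.058 to -0.016 for Grin1 (without PLX5622 27 and control 3) and -0.049 to -0.0065 for Grin2b (without PLX5622 25 and control 8). It gave -0.013 to 0.024 for the log2 difference in Grin2a to Grin2b, -0.013 to 0.057 for Grin2a to Grin1, -0.013 to 0.038 for Grin2b to Grin1, -0.038 to 0.069 for Grin3a to Grin1 and -0.0035 to 0.046 for Gria2 to Grin1. The lowest adjusted p of any ratio over the alternatives was 0.521. No paired analysis was possible because the animal numbers of the diets do not overlap. Depth limits Grin2d most, at 7 to 20 counts a library.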
